A study of Homo sapiens with 6 samples.

Results

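The 10 genes described here encode the core machinery of mitosis and 2 markers of dividing cells: the cyclins CCNA2, CCNB1 and CCNB2, the kinases CDK1, PLK1, AURKA and AURKB, the activator CDC20, the topoisomerase TOP2A and the proliferation antigen MKI67. They were taken as every row of the deposited table annotated to 1 of these symbols alone, which gave 25 of 54613 probe sets, for all 10 of the 19775 genes measured. No row carried one of the symbols together with another gene's. They were chosen by function with the hypoxia and normoxia intensities of these 6 arrays known, including the disagreement between the probe sets of MKI67, so their differences between the conditions are given as a description and carry no test. Whether a probe set passed the fit over the whole table is stated as a label, "called", with the share of all probe sets that did so. Adjusted p-values printed for these 25 probe sets show only how near that label lay to its threshold.

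The cells were MM1S, an established cell line from a plasma cell cancer, multiple myeloma. One group was 3 arrays labelled hypoxia and the other 3 arrays labelled normoxia. The treatment text names 24 h of hypoxia on all 6 arrays, those of normoxia included; the oxygen level and the handling of the normoxia cells are not given in the sources used here, and neither is whether each array had its own culture; a p-value here therefore speaks only for the spread among these arrays, which may be technical. Biotin-labelled cRNA from total RNA was hybridised to single-colour arrays, and each array has 1 linear intensity per probe set (arbitrary units), with array medians of 54.95 to 60.1. Across probe sets, which are no independent replicates, the log2 values of arrays had Pearson correlations of 0.988 to 0.993 inside a condition and 0.962 to 0.968 across conditions. The label of the line was met by its markers: JCHAIN, XBP1, TNFRSF17, MZB1, IRF4, PRDM1, SDC1 and SLAMF7 averaged between 2705 and 12699 in hypoxia, and CD38 was dimmer at 198 ± 12.4 in hypoxia and 335 ± 23.3 in normoxia. Markers of T cells, myeloid cells, epithelium and fibroblasts averaged at most 155 in either condition, the highest being COL1A1 in normoxia. Of those, EPCAM rose to 67.3 ± 9.97 in hypoxia, against 24.8 ± 4.04 in normoxia, and CD3D to 132 ± 7.73, against 98.3 ± 14.9. The EPCAM values in normoxia lay below the array medians, where signal cannot be told from background. The size of its difference is therefore uncertain. The brightest marker of another cell type was the globin gene HBB, which fell to 1125 ± 27.7 in hypoxia, against 1751 ± 128 in normoxia. Of the 9 plasma cell markers 4 fell and 0 rose. The part of any of these markers in the results was not tested. The hypoxia-induced genes HILPDA, P4HA1, NDRG1 and VEGFA rose, by 0.70 to 3.58 on the log2 scale.

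Entry into mitosis is driven by CDK1 bound to cyclin A or B, with PLK1 and the Aurora kinases directing centrosomes, chromosome attachment and cytokinesis; CDC20 then turns on the anaphase-promoting complex, which destroys cyclin B. The genes peak in G2 and M phase, where the MuvB complex with MYBL2 and FOXM1 activates them through a promoter element called the cell cycle genes homology region (CHR), and NF-Y acts through CCAAT boxes. In arrested cells the DREAM form of MuvB represses the same genes. A plasma cell proper has left the cell cycle, whereas a myeloma line divides, so these transcripts are read as a proliferation signature in this disease.

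The promoters are shown as a description of these genes. Their letters were not used in the choice, but the genes were chosen as mitotic regulators, a class described above as controlled through these motifs. A high share of matches is therefore not independent of the choice. RefSeq start sites (GRCh38.p14) gave windows of 250 bases before to 50 after the start for 9 of the 10 genes, 11 windows in all since CDK1 and AURKB have several starts; AURKA was not matched. The windows were searched on both strands for the CHR letters TTTGAA or TTCGAA and for CCAAT. In the stretches below, each printed 5′ to 3′ on the gene's strand and ending at the base before the start, capitals mark matches on either strand; the 2 motifs may overlap, as they do by 1 base in MKI67.
MKI67: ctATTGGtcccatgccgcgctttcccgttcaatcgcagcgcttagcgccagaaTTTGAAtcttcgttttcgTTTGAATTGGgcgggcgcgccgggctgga
TOP2A: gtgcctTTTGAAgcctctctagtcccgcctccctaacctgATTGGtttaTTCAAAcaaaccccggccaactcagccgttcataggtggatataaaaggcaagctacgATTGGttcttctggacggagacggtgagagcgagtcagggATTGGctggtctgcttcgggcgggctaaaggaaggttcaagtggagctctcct
CDC20: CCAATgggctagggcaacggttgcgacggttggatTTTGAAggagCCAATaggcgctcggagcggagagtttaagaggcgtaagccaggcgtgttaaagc
PLK1: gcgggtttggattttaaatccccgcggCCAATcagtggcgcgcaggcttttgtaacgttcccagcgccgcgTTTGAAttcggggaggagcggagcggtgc
CCNB2: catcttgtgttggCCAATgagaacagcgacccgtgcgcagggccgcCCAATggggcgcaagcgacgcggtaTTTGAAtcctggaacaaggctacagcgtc
CDK1: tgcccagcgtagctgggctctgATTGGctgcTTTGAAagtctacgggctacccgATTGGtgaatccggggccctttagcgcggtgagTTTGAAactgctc
CCNB1: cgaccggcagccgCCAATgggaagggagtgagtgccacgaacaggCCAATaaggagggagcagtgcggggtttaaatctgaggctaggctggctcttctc
CCNA2: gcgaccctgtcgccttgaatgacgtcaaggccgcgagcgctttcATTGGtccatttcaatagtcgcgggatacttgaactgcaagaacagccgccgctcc
These stretches lie at chr10:128126424-128126523 (- strand) for MKI67, chr17:40417897-40418096 (- strand) for TOP2A, chr1:43358881-43358980 (+ strand) for CDC20 and chr16:23678789-23678888 (+ strand) for PLK1. Those of the cyclins and CDK1 lie at chr15:59105046-59105145 (+ strand) for CCNB2, chr10:60778378-60778477 (+ strand) for the start of CDK1 with the most matches, chr5:69167050-69167149 (+ strand) for CCNB1 and chr4:121823884-121823983 (- strand) for CCNA2.

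CHR letters were found in 7 of the 11 windows (63.64%), against 16.35% of all 35116 windows of the same length. The genes with CHR letters were MKI67, TOP2A, CCNB2, CDK1, PLK1 and CDC20. The windows are not all separate, since those of CDK1 overlap each other, as do those of AURKB. The CCAAT match of AURKB is the same site counted in both of its windows. CCAAT letters were in all 11, against 34.61% of all windows, and 6 of the 11 held 2 or more, against 10.75% of all windows. Among 29 windows of other G2/M genes 22 held CHR letters, and among 25 windows of G1/S genes 3 did. CHR letters were therefore not particular to the members, at 63.64% of their windows against 75.86% of those of other G2/M genes. CCAAT letters were in 22 of the 29 and 17 of the 25 windows, with 2 or more in 41.38% and 44.0%. MKI67, CCNB2 and PLK1 each had TTTGAA beginning 29 bases before the start. The windows of CCNA2, CCNB1 and AURKB held CCAAT and no match to these CHR letters. Other spellings of the CHR were not searched, so its absence from these windows is not shown. A match is a description of the letters and not a binding site, and the genes with CHR letters include one called higher in hypoxia on all its probe sets (TOP2A), one lower on all arrays (CDK1) and one not called (PLK1).

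**Figure D1:**
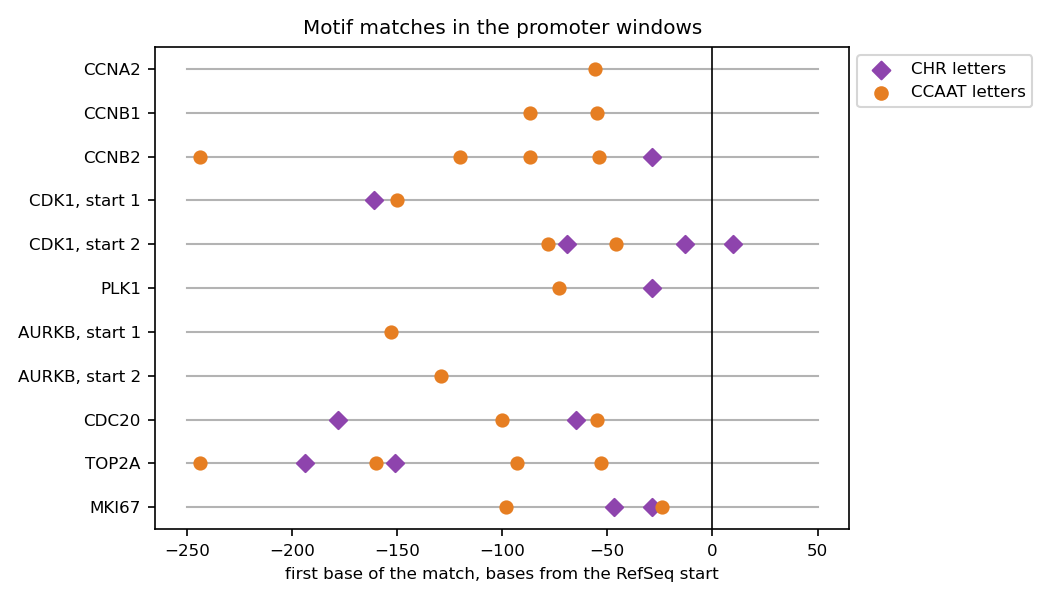
Positions of CHR letters (diamonds) and CCAAT letters (circles) in the promoter windows of 9 genes, as the first base of each match relative to the RefSeq start (x axis, bases); each line is 1 window. CCAAT is present in all 11 windows and CHR in 7, and MKI67, CCNB2 and PLK1 share a CHR match at -29.

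Of the 25 probe sets, 5 were called higher and 7 lower in hypoxia, and 13 were not called; among all 54613 probe sets the share called was 30.7%, 15.5% higher and 15.2% lower. A call is an adjusted p of at most 0.05 in limma, with Benjamini-Hochberg adjustment over all probe sets. All 3 hypoxia arrays lay above all 3 normoxia arrays for 7 member probe sets and below for 10 (21.6% and 20.9% of all probe sets), and the groups overlapped for 8. Among probe sets with a mean log2 value of 8 or more, 11 of 20 members were called, against 60.3% of the 15305 such probe sets. The median difference over the 25 was -0.05, against 0.02 over all probe sets, in log2(intensity + 16), a scale that makes changes of dim probe sets look smaller. In bulk RNA, fewer cells in G2 and M phase and less RNA per such cell cannot be told apart. Intensities of different probe sets are not compared as levels, since each has its own affinity.

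**Figure D2:**
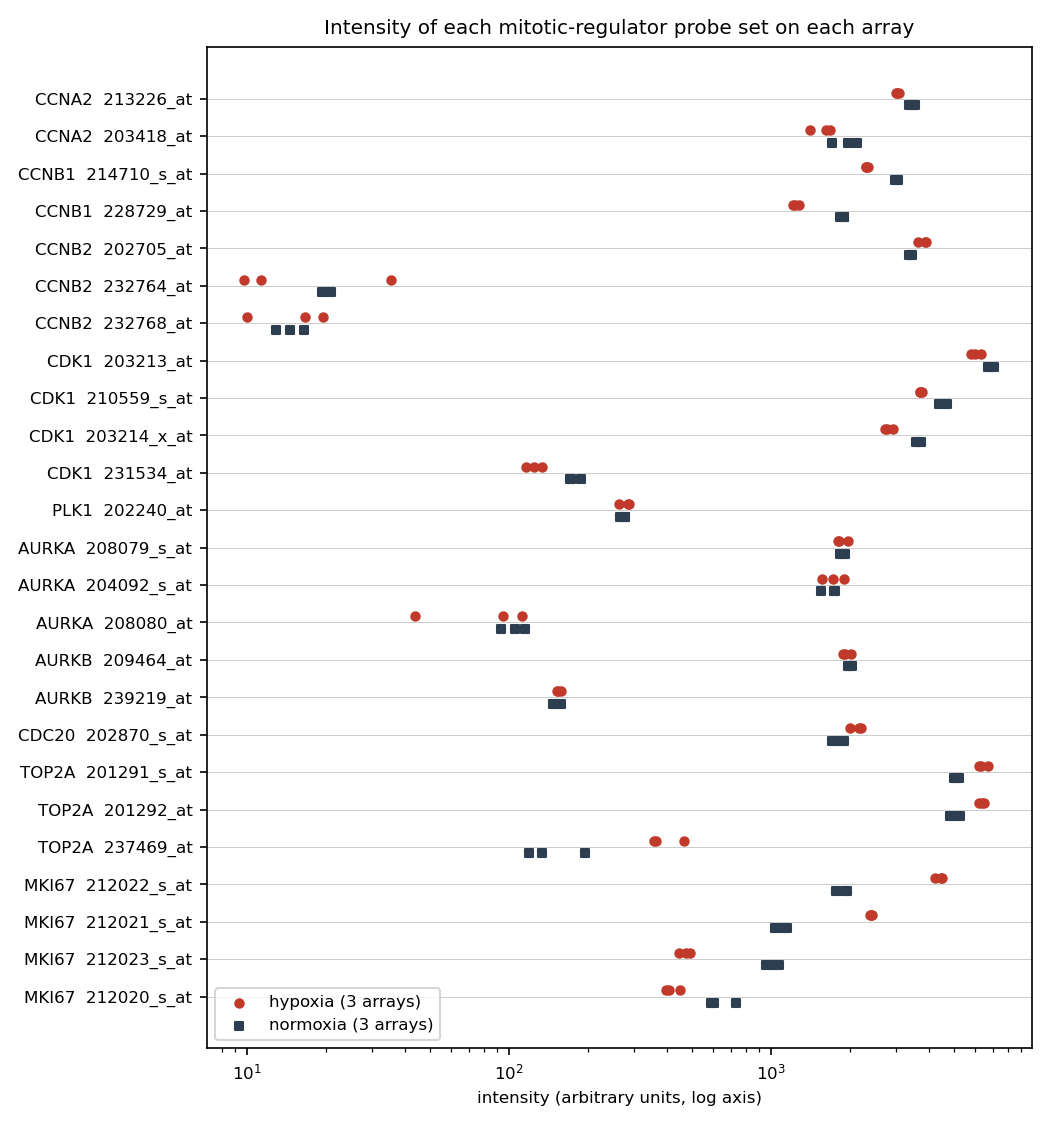
Intensity (x axis, arbitrary units, log axis) of the 25 probe sets on 3 hypoxia arrays (circles, upper in each row) and 3 normoxia arrays (squares, lower). The groups separate clearly for MKI67, TOP2A, CCNB1 and CDK1, and lie over each other for PLK1, AURKA and AURKB.

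CCNA2 and CCNB1, cyclins that pair with CDK1, were lower on every hypoxia array than on any normoxia array, with ratios of means, hypoxia over normoxia, of 0.664 to 0.876. CCNB1, the main mitotic cyclin, read 2311, 2305 and 2336 on probe set 214710_s_at in hypoxia, against 3038, 2962 and 3028 in normoxia. Its other probe set, 228729_at, read 1282, 1233 and 1212 in hypoxia, against 1898, 1827 and 1889.5 in normoxia. Both were called lower, without overlap, with log2 differences of -0.37 (95% confidence interval -0.53 to -0.22) and -0.59 (-0.75 to -0.42). CCNA2, the cyclin of S phase and of mitotic entry, read 3007, 3077 and 3009.8 on 213226_at in hypoxia, against 3478, 3356 and 3549 in normoxia. On 203418_at it read 1408, 1669.75 and 1613 in hypoxia, against 1712, 2125 and 1970.2 in normoxia, so that the groups just failed to touch. Its log2 differences of -0.19 (-0.35 to -0.03) and -0.30 (-0.58 to -0.03) were not called; each was called under 4 of the 13 other settings, for 203418_at with the replicate number as a block among them. Averaged over both probe sets, CCNA2 differed by -0.25 (-0.42 to -0.077) and was called in the fit of probe set means.

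CCNB2, the second B-type cyclin, which resides at the Golgi, did not share the direction of CCNB1. Its bright probe set 202705_at read 3626, 3909 and 3878 in hypoxia, against 3407, 3361 and 3455 in normoxia, a difference of 0.16 (-0.01 to 0.32) that was not called although the arrays did not overlap. The ratio of CCNB2 (202705_at) to CCNB1 (214710_s_at) within an array was 1.57, 1.70 and 1.66 in hypoxia, against 1.12, 1.13 and 1.14 in normoxia, so the 2 cyclins changed unequally. The other probe sets of CCNB2, 232764_at and 232768_at, read 9.75 to 35.3 in hypoxia and 12.9 to 20.9 in normoxia, below the median of every array, where signal cannot be told from background. On 232764_at 1 hypoxia array stood apart at 35.3. With all arrays the difference was -0.12 and was not called. Without that array it was -0.44 and gained the label, which at this signal is not read as a change.

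CDK1, the kinase that both cyclin types activate, was lower in hypoxia on all 4 of its probe sets, each without overlap. Probe set 203213_at read 6330.5, 6012 and 5787 in hypoxia, against 7121, 6771 and 6711 in normoxia, and was not called (-0.18, -0.36 to -0.01). The other 3 were called lower. On 210559_s_at the values were 3707, 3762 and 3711 in hypoxia and 4378, 4684 and 4540.4 in normoxia, a difference of -0.28 (-0.44 to -0.12). On 203214_x_at, whose suffix marks probes that may bind other transcripts, they were 2708, 2913 and 2766 in hypoxia and 3587, 3726 and 3613 in normoxia (-0.38, -0.55 to -0.21). The dimmest, 231534_at, read 116, 133 and 125 in hypoxia, against 172, 187 and 171 in normoxia (-0.46, -0.66 to -0.26). The call of 210559_s_at was lost on leaving out hypoxia array 1 (-0.29, adjusted p = 0.0569), hypoxia array 2 (-0.28, 0.0675), normoxia array 1 (-0.26, 0.0719) or normoxia array 2 (-0.28, 0.0684). Averaged over its probe sets, CDK1 differed by -0.33 (-0.46 to -0.19).

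The mitotic kinases PLK1, AURKA and AURKB read nearly the same in both conditions on every probe set except 208080_at of AURKA, and none of their 6 probe sets was called. PLK1, which promotes mitotic entry and centrosome maturation, read 286, 285 and 261 in hypoxia, against 276, 264 and 276 in normoxia. Its difference was 0.03, with an interval from -0.15 to 0.20. AURKA, the kinase of the spindle poles, read 1969, 1802 and 1815 on 208079_s_at in hypoxia, against 1912, 1884 and 1835 in normoxia (-0.01, -0.19 to 0.16). On 204092_s_at it read 1566, 1892 and 1722 in hypoxia, against 1546, 1743 and 1747 in normoxia (0.04, -0.21 to 0.28). Its remaining probe set, 208080_at, was dim and uneven, at 43.6, 94.35 and 112 in hypoxia and 92.7, 115 and 105 in normoxia. AURKB, the kinase of the chromosomal passenger complex, read 1906, 2011 and 1877 on 209464_at in hypoxia, against 1959, 2039 and 1983 in normoxia (-0.05, -0.21 to 0.12). Its second probe set, 239219_at, read 152, 157 and 153 in hypoxia and 158, 147 and 151 in normoxia (0.02, -0.14 to 0.18). The intervals of PLK1 and AURKB all lay within -0.21 to 0.20, and those of the 2 brighter probe sets of AURKA within -0.21 to 0.28.

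CDC20, which activates the anaphase-promoting complex once chromosomes are attached, read 2002, 2160 and 2199.5 in hypoxia, against 1702, 1818 and 1897 in normoxia. All hypoxia arrays lay above all normoxia arrays, and the difference of 0.23 (0.04 to 0.42) was not called; it was called under 4 of the 13 other settings.

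TOP2A, the topoisomerase that untangles sister chromatids, was called higher in hypoxia on all 3 probe sets, without overlap. Probe set 201291_s_at read 6743, 6329 and 6232 in hypoxia, against 5196, 5095 and 4988 in normoxia. Probe set 201292_at read 6200.2, 6379.7 and 6487 in hypoxia, against 4799, 5023 and 5269 in normoxia. These differences were 0.34 (0.17 to 0.51) and 0.34 (0.16 to 0.51), a ratio of means of 1.26 on each. The call of 201291_s_at was lost without normoxia array 2 (0.32, adjusted p = 0.0509) and that of 201292_at without hypoxia array 2 (0.32, adjusted p = 0.0525). Its remaining probe set, 237469_at, was much dimmer, at 465, 357 and 364 in hypoxia and 194, 133 and 119 in normoxia, with a larger difference of 1.34 (0.87 to 1.81). The ratio of 201291_s_at to 237469_at was 14.5, 17.7 and 17.1 in hypoxia, against 26.8, 38.2 and 41.8 in normoxia, so these readings of TOP2A changed unequally.

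**Figure D3:**
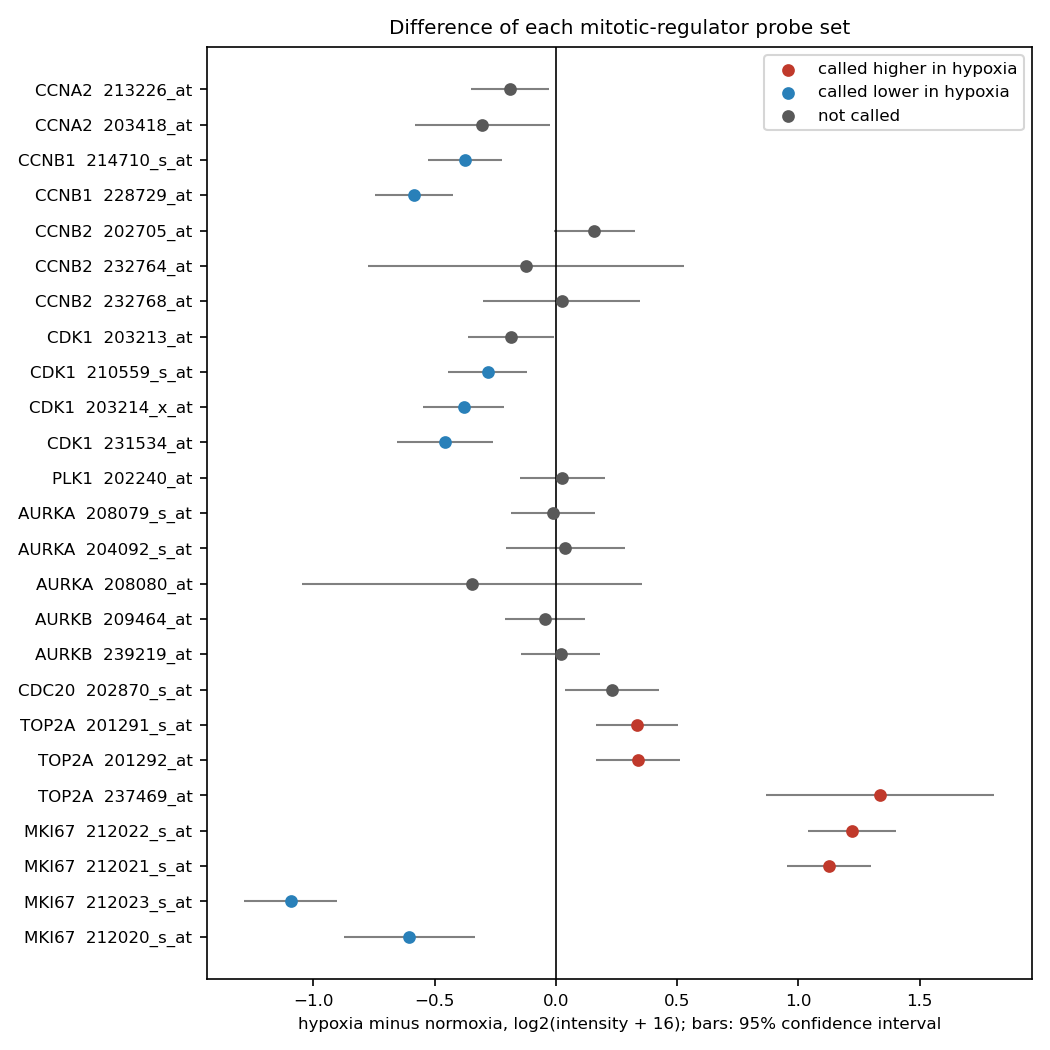
Difference between hypoxia and normoxia (x axis, log2(intensity + 16)) for each of the 25 probe sets, with 95% confidence intervals from limma; colours give the call. The CCNA2, CCNB1 and CDK1 probe sets lie left of 0, and those of PLK1, AURKB and the brighter ones of AURKA lie around 0. TOP2A lies to the right, and CCNB2 and MKI67 lie on both sides.

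MKI67, whose protein Ki-67 coats mitotic chromosomes and is the standard stain for dividing cells, gave the lowest difference of the 25 and, after 237469_at of TOP2A, the highest. Probe set 212022_s_at read 4494, 4442 and 4237 in hypoxia, against 1942, 1918 and 1769 in normoxia. Probe set 212021_s_at read 2383, 2436 and 2402 in hypoxia, against 1150.3, 1099.96 and 1038 in normoxia. On both, every hypoxia array was above every normoxia array, with differences of 1.22 (1.04 to 1.40) and 1.12 (0.95 to 1.30).

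The other probe sets of MKI67 went the opposite way, again without overlap. Probe set 212023_s_at read 488, 446 and 471 in hypoxia, against 1068, 958 and 1028 in normoxia, a difference of -1.09 (-1.28 to -0.90). Probe set 212020_s_at read 449, 406 and 395 in hypoxia, against 737, 589 and 607 in normoxia (-0.60, -0.87 to -0.33). All 4 suffixes mark probes shared between several transcripts; no probe sequences were used here, so where on the MKI67 transcript each probe set lies was not examined. The ratio of 212022_s_at to 212023_s_at was 9.21, 9.97 and 8.99 in hypoxia, against 1.82, 2.003 and 1.72 in normoxia, and that of 212022_s_at to 212020_s_at was 10.005, 10.9 and 10.7 in hypoxia, against 2.64, 3.26 and 2.92 in normoxia. In contrast, 212022_s_at to 212021_s_at was 1.89, 1.82 and 1.76 in hypoxia and 1.69, 1.74 and 1.70 in normoxia. The mean log2 value of the 4 probe sets was 10.30, 10.24 and 10.23 in hypoxia, against 10.19, 10.05 and 10.04 in normoxia, a difference of 0.16 (-0.0033 to 0.33) that was not called in a fit of probe set means over 19775 genes. Every call of the 4 probe sets and its direction were the same in all 13 other settings.

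Across the table, 3237 genes had several probe sets called, and 500 of them (15.4%) had calls in both directions. MKI67 was 1 of 36 genes with at least 2 probe sets called each way. Another was ANAPC5, a subunit of the anaphase-promoting complex, with 2 called higher and 4 lower.

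**Figure D4:**
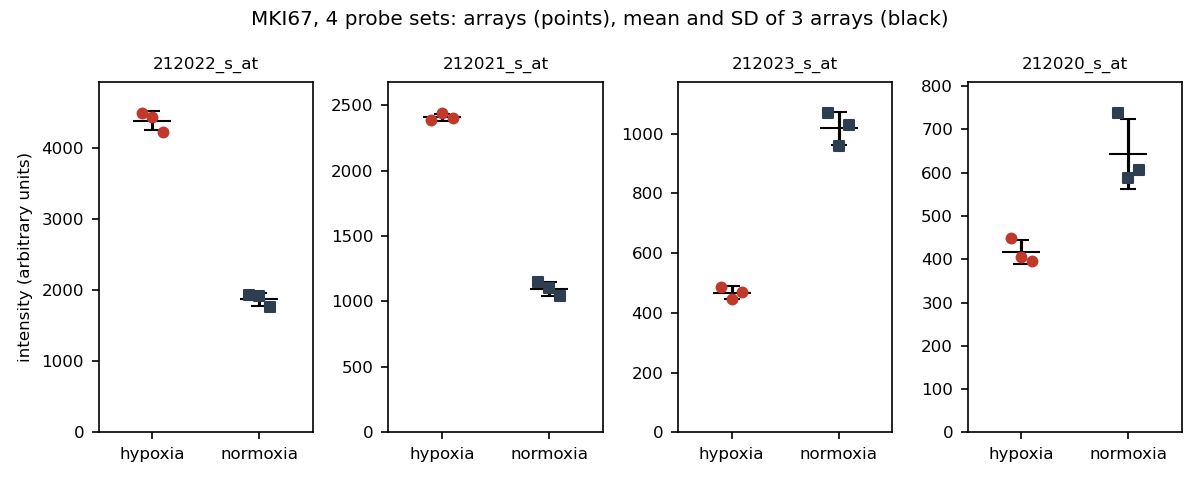
Intensity (y axis, arbitrary units, each panel with its own scale from 0) of the 4 MKI67 probe sets in hypoxia (circles) and normoxia (squares); points are arrays, black marks the mean and SD of 3 arrays. The first 2 panels are higher in hypoxia (means 4391 and 2407, against 1876 and 1096 in normoxia) and the last 2 lower (468 and 417, against 1018 and 644).

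Genes with a profile over the 6 arrays closest to a member were found by the root mean square distance between centred log2 values among 8126 genes. Closest to 212022_s_at of MKI67 were TNRC6B, UBR2, GOLGB1, ZMYM2 and TUT7, at distances of 0.026 to 0.040. Closest to 214710_s_at of CCNB1 were MRPL47, ATG3, TARDBP, MRPS18C and REXO2, at 0.0088 to 0.019. Their own differences between the conditions were 1.20 to 1.27 and -0.40 to -0.35.

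The surrounding pathway was read from lists of genes outside the 10, with 1 probe set per gene, the brightest. Of 150 measured genes, 14 rose and 67 fell in limma and 69 did not pass; of all 19775 genes, 15.6% rose and 19.1% fell. The count that rose was 6 to 12 on leaving out 1 array: 12 without hypoxia array 0, 8 and 6 without hypoxia arrays 1 and 2, and 9, 6 and 9 without normoxia arrays 0, 1 and 2. It was 22 with an intensity trend. Of the 69 that did not pass, 13 had a dimmer probe set that was called, and of the 150 genes 7 had probe sets called in both directions. Among those named below with calls in both directions were ARPP19, PPP2R2A and RRP1B, whose other called probe sets were at 0.23, -0.50 and 0.57, against the direction given.

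Genes expressed alongside the members in G2 and M phase were called in both directions, in shares near those over all genes. Of 30, 6 rose, 5 fell and 19 did not pass, with a range of -1.58 to 0.61 and a median of 0.04 (-0.00016 over all genes). All 30 were read from probe sets with a mean log2 value of 8 or more. Of all such probe sets in the table, 60.3% were called. The checkpoint kinase gene BUB1 averaged 5872 ± 82.7 in hypoxia and 3855 ± 95.6 in normoxia (SD, n = 3 each; limma adjusted p = 0.00089), and the centrosomal kinase gene NEK2 3276 ± 80.6 in hypoxia and 2188 ± 53.5 in normoxia (limma adjusted p = 0.00115). LMNB1, which encodes a nuclear lamin, fell to 617 ± 118 in hypoxia, against 1889 ± 387 in normoxia. CDCA3, an adaptor in the degradation of WEE1, fell by 0.31, a call lost without normoxia array 2 (-0.30, limma adjusted p = 0.0542).

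The regulators of CDK1 were split. Of 12, 2 rose, 3 fell and 7 did not pass (median -0.12). The phosphatase gene CDC25A, which acts at the start of S phase as well as on CDK1, fell to 205 ± 33.3 in hypoxia, against 1278 ± 57.2 in normoxia (-2.56, limma adjusted p = 7.55e-05). Its relative CDC25C, which activates CDK1 at mitotic entry, rose by 0.33, and CCNH, the cyclin of the CDK-activating kinase, by 0.34. WEE1, the kinase that holds CDK1 inactive, fell by 0.31, a call lost without normoxia array 2 (-0.30, limma adjusted p = 0.0545). Among 10 genes of mitotic phosphatases and the Greatwall pathway, 2 rose and 3 fell (median -0.14). The phosphatase subunit gene PPP2R2A rose by 0.51 (limma adjusted p = 0.00156), while its inhibitors ENSA and ARPP19 fell by 0.45 and 0.44 and the catalytic subunit gene PPP2CA by 0.31. The last call was lost without normoxia array 2 (-0.31, limma adjusted p = 0.0516).

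Partners of the Aurora kinases and PLK1 mostly did not pass, with 1 of 10 higher, 1 lower and 8 not past the threshold (median -0.07). TACC3, which AURKA recruits to spindle microtubules, fell by 0.39; the call was lost without hypoxia array 1 (limma adjusted p = 0.0615), hypoxia array 2 (0.0648) or normoxia array 2 (0.0598). The histone kinase gene HASPIN rose by 0.23, a call lost in 9 of 13 other settings, every array left out included (limma adjusted p = 0.0566 to 0.117 on leaving out 1 array). Of 19 genes of the anaphase-promoting complex and its regulators, 1 rose, 7 fell and 11 did not pass (median -0.17). FBXO5, its interphase inhibitor, fell to 1077 ± 52.0 in hypoxia, against 2131 ± 50.1 in normoxia (limma adjusted p = 0.000229). The subunit genes ANAPC7, ANAPC10 and CDC23 fell by 0.81, 0.51 and 0.47.

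Genes of the spindle checkpoint, which holds CDC20 inactive, were lower for 5 of 10, with BUB1 higher (median -0.31). TRIP13, a remodeller of checkpoint proteins, fell to 736 ± 49.7 in hypoxia, against 2334 ± 143 in normoxia (limma adjusted p = 9.26e-05). The kinetochore gene ZWINT fell by 0.80 and MAD2L1 by 0.37. Condensin genes, which shape chromosomes together with TOP2A, fell for 5 of 9 in that list and rose for 0 (median -0.28). NCAPH2 fell by 1.08, SMC2 by 0.54, NCAPD3 by 0.49 and NCAPH by 0.44. Among 6 partners of Ki-67 and proteins of the chromosome periphery, 5 fell and NPM1 did not pass, at 12018 ± 250.3 in hypoxia and 12030.0 ± 567 in normoxia (median -0.60). NIFK, which binds Ki-67 directly, fell to 2041 ± 313 in hypoxia, against 4900 ± 418 in normoxia (limma adjusted p = 0.000756). RRP1B, PES1 and NCL fell by 1.01, 0.78 and 0.42; all 3 are also nucleolar.

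The transcription regulators of these promoters fell for 10 of 15 measured and rose for 1 (median -0.67). FOXM1 averaged 537 ± 32.1 in hypoxia and 865 ± 22.8 in normoxia (limma adjusted p = 0.00106), and was named outside the rule for lists, after its values were seen. So were MYBL2, which fell by 0.70, and RBL2, a pocket protein of the DREAM complex and the list's member that rose, by 0.60. TFDP1, the partner of E2F factors, fell by 1.25, RBL1, the other DREAM pocket protein, by 1.69, and the MuvB subunit genes LIN54 and LIN9 by 0.81 and 0.96. Set against these, 22 of 23 measured G1/S genes fell and 0 rose (median -1.65), with FEN1 at -2.29, CCNE1 at -2.16, GINS2 at -2.06 and SLBP at -1.86 (limma adjusted p at most 5.62e-05). The 10 mitotic regulators had a median of 0.01 over 1 probe set per gene and lay between -0.37 and 1.22, the upper end being the brightest probe set of MKI67; with a gene's probe sets averaged they lay between -0.48 (CCNB1) and 0.67 (TOP2A).

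**Figure D5:**
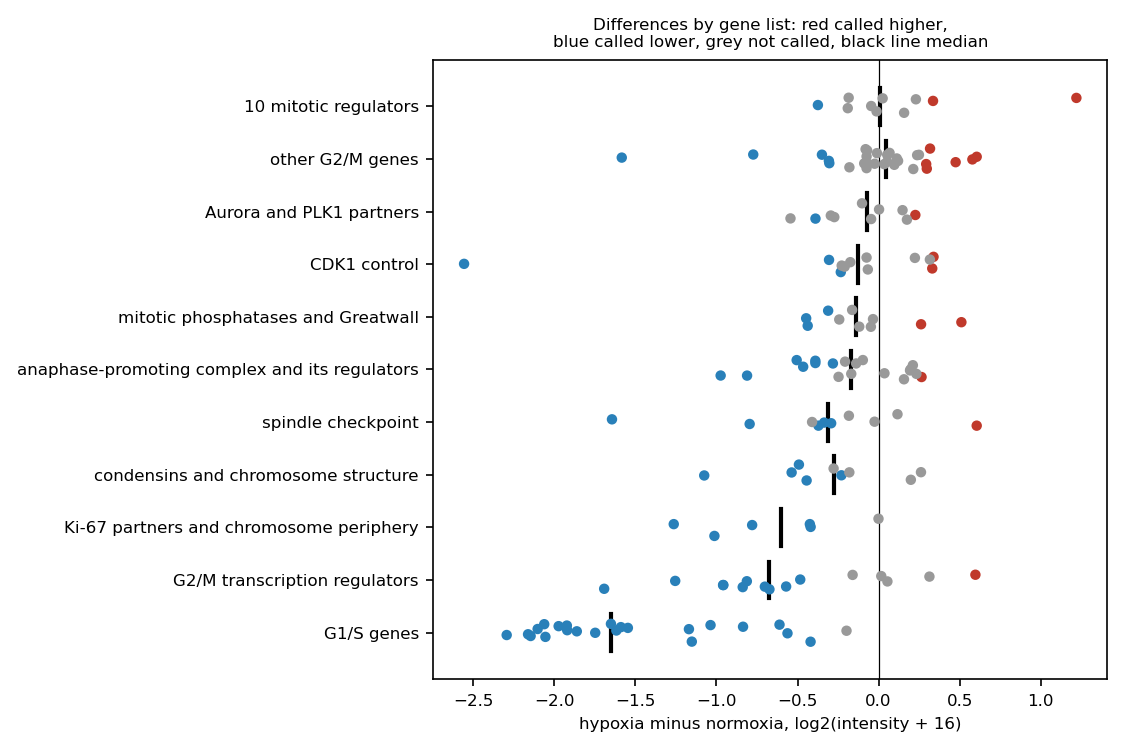
Differences between hypoxia and normoxia (x axis, log2(intensity + 16)) with 1 probe set per gene, for the 10 mitotic regulators and 10 lists of other genes; each point is a gene and the black line the median. The lists run from a median of 0.04 for other G2/M genes to -1.65 for G1/S genes.

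Of 9 family relatives of the members, 1 was called higher and 2 lower on the brightest probe set, a share near that over all genes. TOP2B, the related topoisomerase, which non-dividing cells also make, averaged 5363 ± 385 in hypoxia and 4087 ± 204 in normoxia (0.39, limma adjusted p = 0.0166); the call was lost without hypoxia array 1, hypoxia array 2, normoxia array 0 or normoxia array 1 (limma adjusted p = 0.0586, 0.0608, 0.0521 and 0.0615). CDK2, the S phase kinase that also binds cyclin A, fell by 1.17. PLK3 was called lower, at 52.4 ± 7.76 in hypoxia, against 110 ± 16.1 in normoxia, but the hypoxia values lie near or below the array medians, so the size of its difference is uncertain. The probe sets of PLK4, which controls centriole duplication, disagreed. The brightest averaged 1241 ± 50.6 in hypoxia and 1328 ± 64.9 in normoxia and did not pass, while the next averaged 815 ± 89.2 in hypoxia and 1428 ± 90.5 in normoxia and was called lower (-0.80, limma adjusted p = 0.00191), as was the dimmest (-0.74, limma adjusted p = 0.00222). PLK2 did not pass, at -0.31. FZR1, the second activator of the anaphase-promoting complex, did not pass on its brightest probe set, at 0.23, but another of nearly the same mean signal was called higher (1.35, limma adjusted p = 0.000146). CCNA1, AURKC and CCNB3, all best known from the germ line, did not pass and averaged 12.5 to 122 in hypoxia and 15.3 to 119 in normoxia.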

How the data were processed

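RNA of 3 hypoxia and 3 normoxia arrays was compared. Per the file headers there is 1 column per array, and the deposited values are linear intensities, 1 per probe set; their background correction, probe summary and array scaling are not stated in the sources used here. Gene names came from the platform annotation, with symbols updated by Entrez identifier (41037 of 41091 single-symbol probe sets matched RefSeq). From the deposited intensities, log2(intensity + 16) was computed and fitted over all 54613 probe sets in limma 3.58.1 (lmFit, eBayes; R 4.3.3) with a two-sided test, no covariate, no filter and Benjamini-Hochberg adjustment. A gene outside the 10 was read by its brightest probe set. No detection calls were used, and precision is limited by the number of arrays.

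The members, lists and tests were chosen with earlier results of these data known. Named genes were all members, all family relatives, up to 4 per list with the smallest adjusted p among those past the threshold, and the 5 genes nearest in profile to MKI67 and CCNB1; others are marked. Of the lists, ANAPC1 was not analysed here.

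The fit was tested on simulated data with known changes before it was used. It recovered 1 of 50 log2 changes of 0.3, 8 of 50 of 0.5, 40 of 50 of 1 and 50 of 50 of 2, with 1 false call. All these changes were put into probe sets with a normoxia mean log2 value above 8. Recovery among dimmer probe sets was not examined. A small difference that was not called may therefore still be a change. In the simulation 100 of 54613 probe sets were called, against 30.7% in the data, so recovery in the data may differ. Alternatives were pseudocounts of 1 and 64, leaving out dim probe sets, median centring, quantile normalization, an intensity trend, a replicate block, leaving out each array and, for lists, averaging all probe sets of a gene.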

Additional observations from a re-analysis of the deposited data

How the results depend on the processing

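Over 13 other settings the member probe sets gave 323 values, of which 299 stayed on their side of the threshold (with the same direction where called), 6 lost a call (on leaving out 1 array), 18 gained one and 0 changed sign after a call. CCNA2, CDK1 203213_at, CCNB2 202705_at and CDC20 gained calls when dim probe sets were left out or with an intensity trend. The count of member probe sets called was 12, and 10 to 12 on leaving out 1 array, 12 to 17 in the other settings. The count of related genes called was 81, and 65 to 76 on leaving out 1 array and 76 to 98 in the other settings. For the list genes named by the rule, 575 of 597 values stayed on their side of the threshold, 19 lost a call, 3 gained one and 0 reversed. FOXM1, MYBL2, RBL2 and NPM1 fall outside the rule, and their calls in the other settings are not given. The share of all probe sets called was 30.7%, 25.2% to 29.5% on leaving out 1 array, and 61.3% when dim probe sets were left out, where 27306 were tested. The share of higher calls among all calls was 50.6%, and 43.2% with median centring. Same-numbered arrays of the 2 conditions had correlations of deviations from the group means of 0.21, 0.0082 and 0.19 over all probe sets, not all above 0.1, and of 0.71, 0.34 and 0.67 over probe sets with a mean log2 value above 8, all above it, where hypoxia array 1 was as close to normoxia array 2 (0.36). The labels do not say what the numbers share, and whether they pair the arrays is not settled by these values. With the replicate block, CCNA2 203418_at was called (-0.30, limma adjusted p = 0.0349) and HASPIN was not (0.23, limma adjusted p = 0.0738). No other member or gene named by the rule changed its call. In that setting 13 member probe sets (5 higher, 8 lower) and 79 related genes were called.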
